A study of Homo sapiens with 6 samples.

Results

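ETAA1, REV3L and ATRX are 3 human genes that carry a very long internal exon and that earlier work ties to the RNA-binding protein RBMX. They were taken by name, 3 of the 62700 genes of the gene table, by a rule that uses no value of these libraries, although earlier results of these data were known when it was set. Each was followed as a whole gene and through its annotated transcripts in TCam-2, a long-established seminoma-derived cell line. The 3 groups were non-transduced cells (WT), cells carrying GFP_FLAG, a tagged fluorescent protein, as the transduction control (GFP), and cells overexpressing RBMXL3_FLAG, a tagged member of the RBMX family (RBMXL3). Every group was TCam-2 and had 2 libraries of polyadenylated RNA, with their own RBMX expressed in all 6. The comparison with GFP holds transduction and tag constant, and the comparison with WT does not. No vector, promoter or clone is named in the labels.

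RBMX (also hnRNP G) is a nuclear RNA-binding protein that takes part in splice site choice and in genome stability. It has been described as keeping very long exons whole, by preventing the use of splice sites that lie inside them. ETAA1 is a replication stress protein that activates the ATR checkpoint kinase at single-stranded DNA. REV3L is the catalytic subunit of the translesion DNA polymerase zeta, and ATRX is a chromatin remodeller that works with DAXX to deposit histone H3.3 at heterochromatin and telomeres. A transcript that loses part of such an exon loses coding sequence.

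The long exons were located in GENCODE 29 (GRCh38, the build named in the submitters' processing notes). ETAA1 (ENSG00000143971.9; chr2:67397319-67412089, plus strand) has one of 2111 bases at chr2:67403225-67405335, exon 5 of the 6 exons of ETAA1-201. REV3L (ENSG00000009413.17; chr6:111299028-111483715, minus strand) has one of 4162 bases at chr6:111372596-111376757, exon 13 of the 32 of REV3L-202. ATRX (ENSG00000085224.23; chrX:77504878-77786233, minus strand) has one of 3074 bases at chrX:77681520-77684593, exon 8 of the 34 of ATRX-202. All bases of the 3 exons are coding. By length they ranked 360, 80 and 155, in the same order, among 188632 distinct internal coding exons.

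The sequences below show where each long exon begins and, for ETAA1 and ATRX, the splice sites inside it that annotated transcripts use. No annotated REV3L transcript uses a splice site inside its long exon. Most ATRX transcripts counted as not holding the exon have no base of it or begin or end inside it, and these are not shown. The sequences were read 5′ to 3′ from the GENCODE 29 transcript sequences. In the first 3 the capitals mark the first 40 bases of the long exon, and the lower case the last 20 bases of the exon before it.
ETAA1 entry, chr2:67403225-67403264: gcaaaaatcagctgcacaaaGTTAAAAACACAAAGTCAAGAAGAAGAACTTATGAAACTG
REV3L entry, chr6:111376718-111376757, minus strand: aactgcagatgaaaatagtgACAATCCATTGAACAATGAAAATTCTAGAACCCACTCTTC
ATRX entry, chrX:77684554-77684593, minus strand: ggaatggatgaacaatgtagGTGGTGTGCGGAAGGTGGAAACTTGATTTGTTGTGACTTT

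The 3 other ETAA1 transcripts start upstream like ETAA1-201, and splice into the long exon at 1 of 2 acceptors inside it. In the next pair the capitals mark the first 30 bases that the shorter transcripts keep, and the lower case the 30 bases of the long exon just before them, which end in ag. In ETAA1-202 and ETAA1-204 the kept part begins at 67404997 and holds the last 339 bases of the exon. In ETAA1-203 it begins at 67405236 and holds the last 100.
ETAA1 acceptor of ETAA1-202 and ETAA1-204: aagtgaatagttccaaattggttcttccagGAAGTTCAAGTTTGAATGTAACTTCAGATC
ETAA1 acceptor of ETAA1-203: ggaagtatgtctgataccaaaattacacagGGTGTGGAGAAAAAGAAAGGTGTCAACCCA

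In ATRX-213 and ATRX-214 a piece of 87 bases is removed from within the long exon (chrX:77683452-77683538), a multiple of 3. The capitals mark the removed piece, which starts with GT and ends with AG, and the lower case the 20 exon bases kept on each side.
ATRX piece removed in ATRX-213 and ATRX-214: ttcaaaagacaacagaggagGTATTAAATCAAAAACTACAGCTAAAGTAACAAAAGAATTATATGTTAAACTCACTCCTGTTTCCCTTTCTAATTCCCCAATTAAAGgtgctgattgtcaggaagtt

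The 3 exons share a composition that the rule of choice did not name. The genes were taken for their tie to RBMX, so composition and choice may not be independent. A made up 39.0% of the ETAA1 exon, 36.6% of the REV3L exon and 39.7% of the ATRX exon. The median over the 1216 genes with an internal exon of at least 1000 bases in a protein-coding transcript, 1 exon a gene, was 26.5%. The ETAA1, REV3L and ATRX exons held more A than 96.9%, 92.2% and 97.5% of these exons. GC was 33.6%, 36.8% and 36.3%, against a median of 51.5%. The tetramer AGAA, counted on the transcript strand with overlaps and on that strand alone, occurred 10.9, 16.1 and 25.05 times per 1000 bases. Its median over the long exons was 8.21, and 98.9% of them held it at least once. ATRX was above 97.2% of the long exons in AGAA, REV3L above 85.9% and ETAA1 above 67.3%, so the high A content was common to the 3 exons and a density of AGAA near the top was seen in ATRX. The long exon of BRCA2, a further gene described below, held 38.2% A, 33.6% GC and 15.0 AGAA per 1000 bases.

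**Figure D1:**
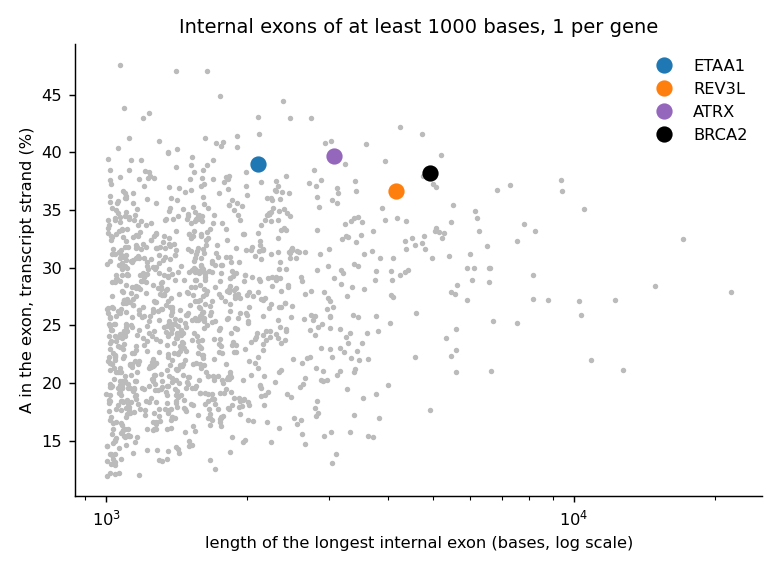
Share of A against length for the longest internal exon of each of 1216 genes (grey), on a logarithmic length axis, with ETAA1, REV3L, ATRX and BRCA2 in colour or black. The 3 genes sit at 36.6% to 39.7% A, above the median of 26.5%.

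Depth was lower in RBMXL3 than in the controls. Recovered reads were 17685680 and 21023355 in RBMXL3 and between 23080795 and 29318007 in the 4 control libraries. RBMXL3 had 0 reads in every control and normalised read counts of 108 and 72.7 in its own libraries. All 9 seminoma markers were expressed, with a summed count of 117694 to 135131. The 2 leukocyte markers summed to at most 1.059, with CD3E at 0. Of the 2 Sertoli markers, FSHR was at or below 2.14 and AMH was highest in RBMXL3, at 162 and 187 beside 93.3 to 147 in the controls. Of the 2 embryonal carcinoma markers, SOX2 was at 11.7 to 34.2, highest in RBMXL3, and GAL at 186 to 255. Of the 3 fibroblast markers, DCN was at or below 1.69. COL1A1 was at 206 and 235 in WT and 335 to 407 in the other 4 libraries, and COL1A2 at 8093 and 9275 in WT and between 11241 and 12709 in the others. The part of these markers in the results was not tested. No date or batch is given in the labels, so preparation and group cannot be told apart.

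Of the 3 genes, ATRX changed in whole-gene counts and ETAA1 and REV3L passed no test. ATRX was lower in GFP than in both WT and RBMXL3, with a fold of 0.660 to WT and of 1.51 for RBMXL3 over GFP, while the interval of RBMXL3 against WT ran from -0.21 to 0.20 on the log2 scale. Each normalised count is a whole number of reads over its library's size factor, as deposited by the authors, and log2 changes are of this value, rescaled, plus 1. Tests are limma's, in 1 fit of 6 libraries, and calls needed an adjusted p (Benjamini-Hochberg, 14292 genes) under 0.05. The labels do not say that the 2 libraries of a group came from separate cultures, so the p-values measure the spread between these samples, which may be technical. In bulk RNA, fewer cells of a type and less RNA per cell cannot be told apart.

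ETAA1, the ATR activator, had normalised read counts of 692 and 662 (WT), 627 and 720 (GFP) and 752 and 775 (RBMXL3). Both RBMXL3 libraries were above all 4 controls, as were those of 22.5% of the tested genes. The order of the group means was GFP (673 ± 66.4), WT (677 ± 21.1) and RBMXL3 (764 ± 16.5; SD, n = 2 each), and no neighbours in this order differed by test. The log2 change in RBMXL3 was 0.18 against GFP (SE 0.11, 95% interval -0.06 to 0.42, limma adjusted p 0.277) and 0.17 against WT (interval -0.07 to 0.41, adjusted p 0.269). Between GFP and WT it was -0.01 (interval -0.25 to 0.23). Between 584 and 817 reads stood behind each value.

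The transcript table put ETAA1 in the other order. Summed over its 4 transcripts, ETAA1 was at 14.2 and 12.9 TPM (WT), 14.6 and 13.1 (GFP) and 11.3 and 11.9 (RBMXL3). Here both RBMXL3 libraries were below all 4 controls, where the counts had placed them above. How many genes take this place in summed TPM was not counted. The log2 change of summed TPM was -0.24 against GFP and -0.21 against WT, and neither was called (limma adjusted p 0.240 and 0.273). ETAA1 therefore had no direction that both tables share, and the cause of the difference was not tested.

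REV3L, the polymerase subunit, had normalised read counts of 954 and 1108 (WT), 886 and 815 (GFP) and 847 and 852 (RBMXL3). Both WT libraries were above the other 4, and the RBMXL3 libraries lay between the GFP libraries. How many genes have both WT libraries highest was not counted. Group means with their SD (n = 2) were 1031 ± 109 for WT, 850 ± 50.5 for GFP and 850 ± 3.61 for RBMXL3. The log2 change of RBMXL3 was -2.1e-05 against GFP (interval -0.24 to 0.24, limma adjusted p 1.0). Against WT it was -0.27 (interval -0.51 to -0.03), with an unadjusted p of 0.0304 and a limma adjusted p of 0.0837, over the threshold. GFP against WT gave -0.27 as well (adjusted p 0.178). With GFP replicate 1 or GFP replicate 2 left out, the RBMXL3 value against WT stayed at -0.27 by construction and passed the threshold. GFP libraries enter that test only through the spread, and more of all tested genes were called in those fits as well. The adjusted p over all 15 alternatives ran from 0.0279 to 0.391.

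ATRX, the chromatin remodeller, had normalised read counts of 2321 and 2377 (WT), 1486 and 1601 (GFP) and 2326 and 2341 (RBMXL3). Both GFP libraries were far below the other 4, which lay close together. Of the tested genes, 9.49% had both GFP libraries below the other 4. Group means with their SD (n = 2) were 2349 ± 39.6 for WT, 1543 ± 81.3 for GFP and 2334 ± 10.1 for RBMXL3.

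By test, ATRX was higher in RBMXL3 than in GFP by 0.59 on the log2 scale (SE 0.094, interval 0.39 to 0.79, limma adjusted p 0.00171), a fold of 1.51. This was 1 of the 3 genes called in that comparison, where 20.9% of all tested genes were called and 10.5% were called higher. Against WT the change was -0.0091 (interval -0.21 to 0.20, adjusted p 0.954), so 0 of the 3 genes were called there (unadjusted, 1 of 3; edgeR and DESeq2 also called none), against 29.9% of all tested genes. In GFP against WT, ATRX fell by 0.60 (interval -0.80 to -0.39, limma adjusted p 0.0125), a fold of 0.660. It was 1 of the 3 genes called between the controls, where 3.67% of tested genes were called and 1.91% were called lower. Genes called lower in GFP than in WT and also lower than in RBMXL3 numbered 76, or 0.532% of those tested. These comparisons share libraries, so they are not independent.

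The ATRX call between the controls was lost without WT replicate 1 (limma adjusted p 0.130) and without WT replicate 2 (0.0863), with changes of -0.62 and -0.58. It was also lost with no filter on low values (adjusted p 0.152), in summed TPM (0.212) and in TPM weighted by length (0.0811), and its range over 15 alternatives was 6.74e-05 to 0.212. The call against GFP held without any one library, with changes of 0.54 to 0.64 and adjusted p-values of 0.00023 to 0.0379.

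**Figure D2:**
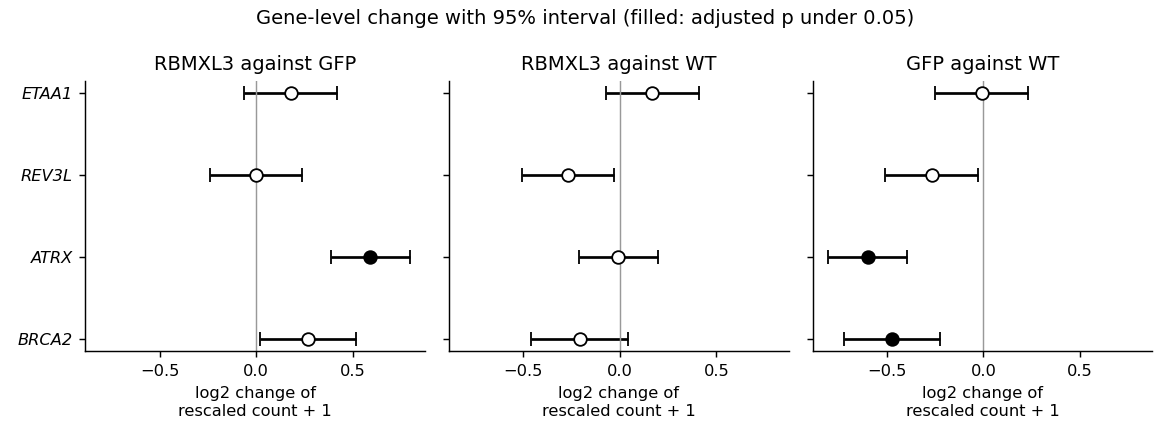
Change in normalised read count, on the log2 scale, of ETAA1, REV3L, ATRX and BRCA2 in the 3 comparisons, with 95% intervals from limma. Filled points passed an adjusted p of 0.05: ATRX at 0.59 against GFP and -0.60 in GFP against WT, and BRCA2 at -0.48 in GFP against WT.

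Summed TPM placed ATRX differently. It was at 28.4 and 25.8 TPM (WT), 18.0 and 19.3 (GFP) and 18.0 and 19.7 (RBMXL3). In this measure RBMXL3 was level with GFP and below WT, where in counts it was level with WT and above GFP. The log2 change against GFP was 0.013 (limma adjusted p 0.951), so the call was lost, and that against WT was -0.50 (adjusted p 0.0355), a call that the counts did not give.

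The 2 measures weigh transcripts differently, since a read count grows with a transcript's length and a TPM does not. When each TPM was multiplied by its transcript's length before summing, a step added after the data were seen, a library's total being scaled to 1000000, ATRX stood at 93.2 and 85.5 (WT), 62.2 and 59.4 (GFP) and 77.1 and 81.6 (RBMXL3). RBMXL3 then lay between the controls. Its change was 0.38 against GFP (limma adjusted p 0.0281) and -0.17 against WT (adjusted p 0.169). For ETAA1 the weighted sum did not restore the order of the counts, with changes of -0.33 against GFP (adjusted p 0.0599) and -0.21 against WT (adjusted p 0.152).

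Levels can be set beside each other between genes on the TPM scale, which is per length. ATRX was the highest of the 3 in every library, at 18.0 to 28.4 TPM. ETAA1 followed in every library at 11.3 to 14.6 TPM, and REV3L was lowest at 5.53 to 11.2 TPM. In these gene sums the ranges did not overlap between ATRX and ETAA1 or between ETAA1 and REV3L. For transcripts with the whole long exon alone, ATRX (6.53 to 11.5 TPM) was below ETAA1 (10.7 to 14.4 TPM) in every library.

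The transcripts that hold the whole long exon were counted next, because the known role of RBMX concerns that exon. In ATRX they made up more of the gene in RBMXL3 than in the controls, and in ETAA1 less, but neither shift passed the test across genes. A transcript held the exon if both its ends were there. By this rule 1 of 4 listed transcripts of ETAA1, 5 of 12 of REV3L and 3 of 23 of ATRX held it. The 7 listed REV3L and 15 listed ATRX transcripts with no base of the exon all lie outside it in the annotation, and none spans and skips it. In these 2 genes the share therefore does not measure skipping of the exon. Of the REV3L transcripts 6 and of the ATRX transcripts 9 were listed at 0 TPM in every library. The table keeps no depth, so these shares have no counting interval, and splice junctions were not analysed here.

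Among its matched transcripts, ETAA1 was almost wholly ETAA1-201, the one with the long exon. In each library it made up 96.8% and 99.1% of the gene's TPM (WT), 98.5% and 98.0% (GFP) and 95.05% and 95.4% (RBMXL3). Both RBMXL3 libraries were below all 4 controls, a place taken by 7.83% of the 651 genes tested for their long-exon share. The log2 change of the ratio of transcripts with the exon to those without was -0.80 against GFP (interval -1.85 to 0.25, limma adjusted p 0.440) and -0.71 against WT (interval -1.76 to 0.34, adjusted p 0.569).

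The rest of ETAA1 was the 3 transcripts that use an acceptor inside the exon, whose sequences are given above. Together they stood at 0.458 and 0.119 TPM (WT), 0.223 and 0.262 (GFP) and 0.557 and 0.554 (RBMXL3). The RBMXL3 libraries were the highest, WT replicate 1 came close, and the WT libraries differed more from each other than RBMXL3 did from WT replicate 1. ETAA1-202, annotated as a target of nonsense-mediated decay, was at 0.237 and 0.219 TPM in RBMXL3 and between 0.0229 and 0.174 in the controls. ETAA1-204, with the same acceptor and annotation, was at 0.284 and 0 TPM (WT), 0 and 0 (GFP) and 0.155 and 0.0617 (RBMXL3). It was thus highest in WT replicate 1. ETAA1-203 was at 0.166 and 0.273 TPM in RBMXL3 and between 0.0732 and 0.151 in the controls. All 3 stayed under the mean of 0.5 TPM that a transcript needed for a test of its own.

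In REV3L the libraries of each group differed widely from each other. Transcripts with its long exon made up 61.7% and 51.4% (WT), 72.2% and 55.3% (GFP) and 86.9% and 64.1% (RBMXL3). RBMXL3 replicate 1 was the highest, but RBMXL3 replicate 2 lay below GFP replicate 1. The log2 change of the ratio was 0.70 against GFP (interval -0.74 to 2.15, limma adjusted p 0.612) and 1.09 against WT (interval -0.36 to 2.53, adjusted p 0.513). In absolute terms the transcripts with the exon were at 4.81 and 4.87 TPM in RBMXL3, within the controls' range of 3.77 to 5.74.

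Several REV3L transcripts differed between the libraries of a group. REV3L-204, a short transcript of 891 bases annotated for nonsense-mediated decay and without the long exon, was at 2.81 and 4.94 TPM (WT), 1.62 and 1.89 (GFP) and 0 and 2.73 (RBMXL3). REV3L-202, the main coding transcript, was at 4.15 and 5.13 TPM (WT), 4.66 and 3.63 (GFP) and 4.81 and 2.87 (RBMXL3). REV3L-207, the second coding transcript with the exon, was listed at 0 in RBMXL3 replicate 1 and at 2.002 TPM in RBMXL3 replicate 2, against 0.134 to 0.809 in the controls. REV3L-209, a noncoding transcript without the exon and under the minimum for a test, was at 0.279 and 0.490 TPM (WT), 0.0960 and 1.15 (GFP) and 0.723 and 0 (RBMXL3). The shares of REV3L-202 and REV3L-204 changed by 0.22 and -0.84 on the log2 scale against GFP (limma adjusted p 0.941 and 0.742). The REV3L-202 value was -1.16 without RBMXL3 replicate 1, 1.60 without RBMXL3 replicate 2 and -0.13 without GFP replicate 2, so its direction turned with a single library.

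In ATRX the libraries of each group lay closer together than in REV3L. Transcripts with its long exon made up 40.4% and 41.1% (WT), 41.1% and 33.8% (GFP) and 56.8% and 56.4% (RBMXL3). Both RBMXL3 libraries were above all 4 controls, as were those of 18.4% of the 651 genes. The log2 change of the ratio was 1.07 against GFP (SE 0.30, interval 0.33 to 1.81), with an unadjusted p of 0.0122 and a limma adjusted p of 0.234. Against WT it was 0.88 (interval 0.15 to 1.62), with 0.0263 and 0.404, and in GFP against WT it was -0.18 (interval -0.92 to 0.56, adjusted p 0.95).

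The higher share in RBMXL3 went with different absolute levels beside each control. In absolute terms, ATRX transcripts with the exon were at 11.5 and 10.6 TPM (WT), 7.41 and 6.53 (GFP) and 10.2 and 11.1 (RBMXL3), so RBMXL3 overlapped WT and lay above GFP. ATRX transcripts without the whole exon were at 16.9 and 15.2 TPM (WT), 10.6 and 12.8 (GFP) and 7.75 and 8.60 (RBMXL3), the lowest of all. Those with no base of the exon were at 8.75 and 7.81 TPM (WT), 5.35 and 8.76 (GFP) and 2.38 and 3.27 (RBMXL3). These absolute values were not tested separately.

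**Figure D3:**
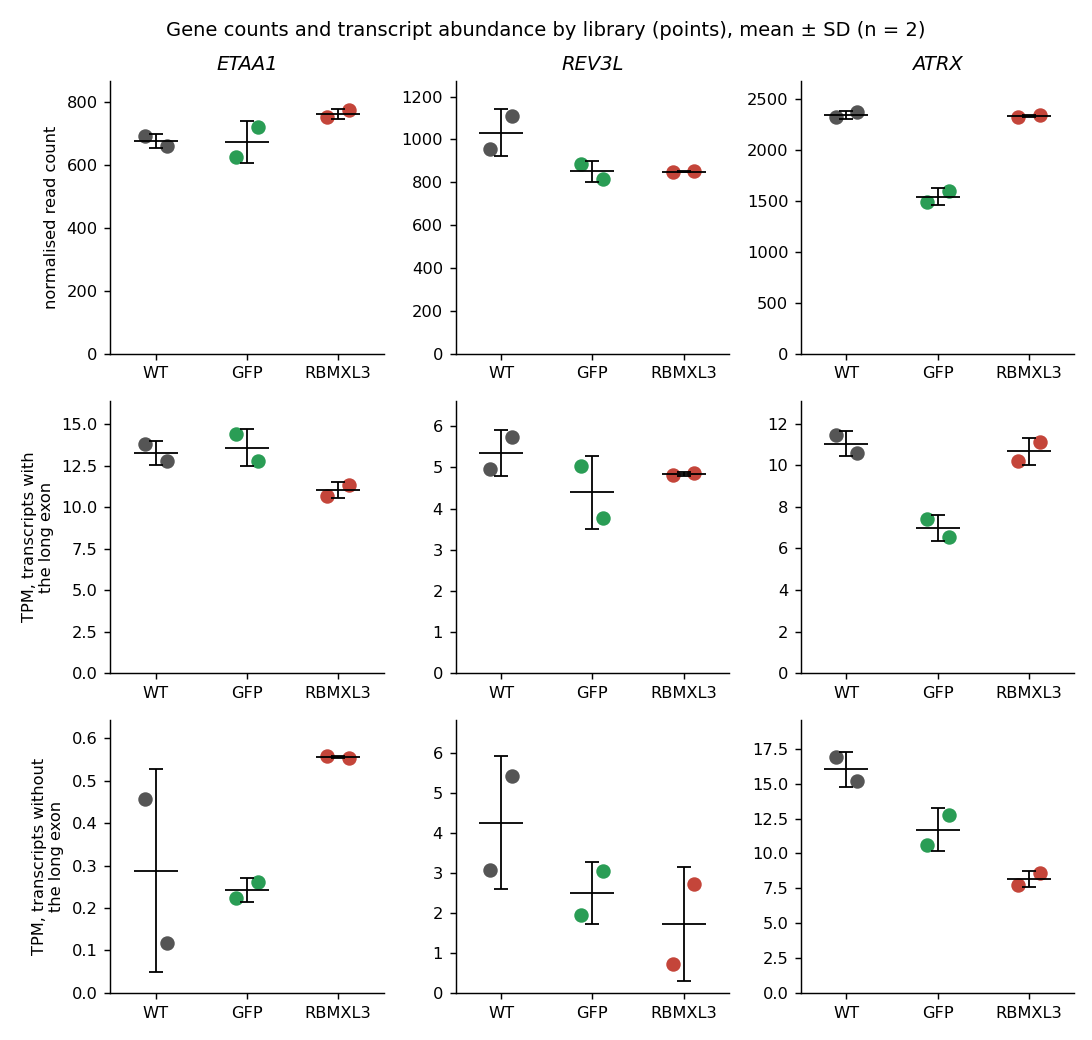
Normalised read count of each gene (top), TPM of its transcripts with the whole long exon (middle) and TPM of its other transcripts (bottom), 1 point per library with mean ± SD (n = 2), all axes from 0. ATRX in GFP is low in the top and middle rows, and ATRX without the exon is lowest in RBMXL3, at 7.75 and 8.60 TPM.

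Among single ATRX transcripts, the coding ATRX-202 was the most abundant in every library but GFP replicate 2, where ATRX-203 was higher at 5.09 TPM. ATRX-202 was at 6.34 and 6.63 TPM (WT), 6.32 and 4.32 (GFP) and 6.98 and 8.02 (RBMXL3). ATRX-201, the other main transcript with the exon, was at 5.13 and 3.98 TPM (WT), 1.09 and 2.21 (GFP) and 3.23 and 3.11 (RBMXL3). ATRX-202 was thus highest in RBMXL3, while ATRX-201 was lowest in GFP. ATRX-207, a coding transcript with 622 bases of the exon, had the highest mean after ATRX-202, at 3.542 TPM over the 6 libraries. Its share changed little, by -0.128 on the log2 scale against GFP and 0.0387 against WT (limma adjusted p 0.915 and 0.984). The shares of the less abundant ATRX-208 and ATRX-210 changed by 0.652 and -0.256 against GFP. Against WT they changed by 0.612 and 0.454, and none of these was called.

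ATRX-218, a short transcript with a retained intron and no base of the long exon, was at 5.55 and 2.95 TPM (WT), 3.82 and 1.59 (GFP) and 0.921 and 0 (RBMXL3). Both RBMXL3 libraries were below all 4 controls, and how many transcripts take this place was not counted. The share of ATRX-218 changed by -2.04 on the log2 scale against GFP (interval -4.01 to -0.06, limma adjusted p 0.394) and by -2.13 against WT (adjusted p 0.410). ATRX-219, a coding transcript of 593 bases with 116 bases of the exon, was at 0.258 and 0 TPM in GFP and between 1.30 and 2.23 in the other 4 libraries. Its share changed by 1.75 against GFP (interval 0.57 to 2.94, adjusted p 0.256).

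The transcripts that lack the 87-base piece, ATRX-213 and ATRX-214, were at 1.11 and 1.71 TPM (WT), 1.58 and 0.997 (GFP) and 0.994 and 0.556 (RBMXL3). The RBMXL3 libraries were the lowest, with replicate 1 only just below GFP replicate 2. In GFP replicate 1 the whole of this value was ATRX-213, and in the other 5 libraries the whole was ATRX-214.

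Over the 3 genes 12 transcripts could be tested for their share, 3 of REV3L and 9 of ATRX, and 0 were called in any comparison. Of all 41598 tested transcripts, 0.81% were called against GFP, 0.784% against WT and 0% between the controls. At an unadjusted p under 0.05, ATRX-218 and ATRX-219 passed against GFP, ATRX-202 and ATRX-218 against WT, and ATRX-219 between the controls. The other tool run, limma's diffSplice, also called none of the 6 transcripts whose changes were followed under it. ETAA1 had no second transcript at the minimum and was not tested.

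**Figure D4:**
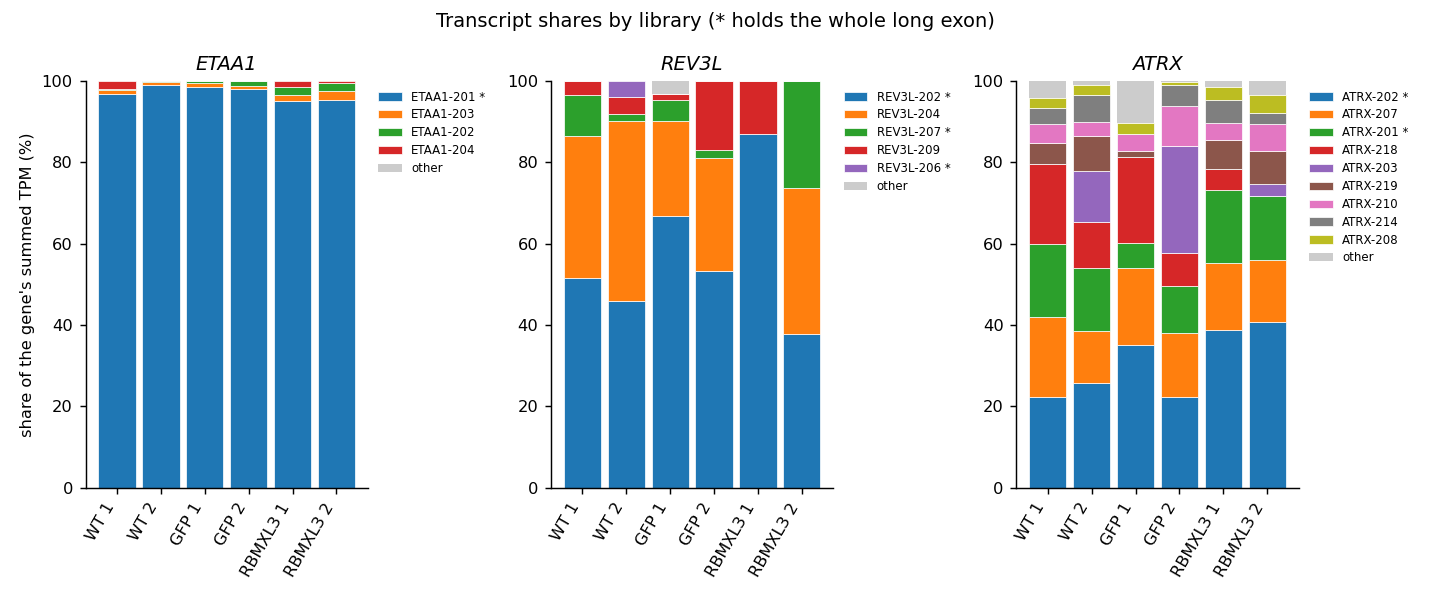
Share of each transcript in its gene's summed TPM, in percent, for the 6 libraries of ETAA1, REV3L and ATRX; an asterisk marks transcripts with the whole long exon. ETAA1-201 takes 95.05% or more in each library, while REV3L shares differ between the replicates of a group.

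The same ratio was fitted in all 651 genes with a long internal exon and enough transcripts. The number called was 0 (0% of the genes) against GFP, against WT and between the controls. At an unadjusted p under 0.05 it was 104, 79 and 34 in the same order. With 0.1 instead of 0.5 TPM added to both sums, limma called 3, 2 and 0. The median long-exon share was 68.4% and 68.3% in RBMXL3 and between 61.3% and 63.0% in the controls. The median log2 change was 0.20 against GFP, 0.09 against WT and -0.07 between the controls. ATRX and REV3L lay above these medians against both controls, and ETAA1 lay below them.

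**Figure D5:**
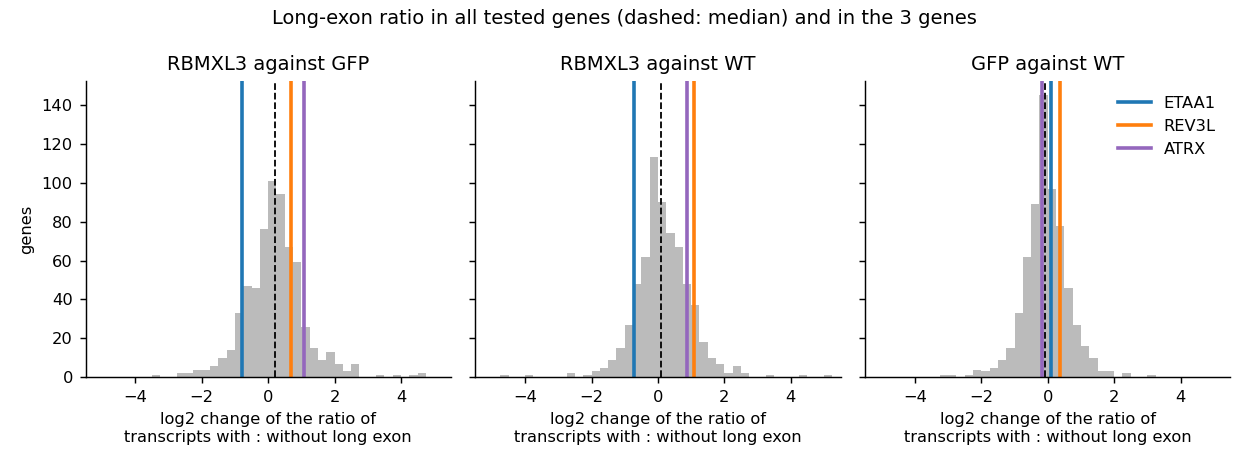
Histogram of the log2 change in the ratio of transcripts with to without the long exon in 651 genes, for the 3 comparisons, with the median dashed and the 3 genes as coloured lines. Against GFP, ATRX (1.07) and REV3L (0.70) lie to the right of the median of 0.20 and ETAA1 (-0.80) to its left.

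BRCA2, a homologous recombination protein whose long exon of 4932 bases has also been tied to RBMX, served as a further gene of the kind. Its normalised read counts were 533 and 550 (WT), 368 and 398 (GFP) and 452 and 479 (RBMXL3). The groups did not overlap, and how many genes show this was not counted. Both GFP libraries were below the other 4, as for ATRX and for 9.49% of the tested genes. GFP against WT was called, at -0.48 (interval -0.72 to -0.23, limma adjusted p 0.0431). The call was lost without WT replicate 1 (adjusted p 0.238), WT replicate 2 (0.164), RBMXL3 replicate 1 (0.108) or RBMXL3 replicate 2 (0.109). It was also lost under quantile normalization (adjusted p 0.0526), with no filter (0.183) and in TPM weighted by length (0.560), and in summed TPM the change was 0.0014. RBMXL3 was at 0.27 against GFP (adjusted p 0.118) and -0.21 against WT (adjusted p 0.187). The share of BRCA2 TPM with the long exon was 60.2% and 66.8% in RBMXL3, inside the controls' range of 38.2% to 71.3%.

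Of the 1214 genes with a long internal exon in the gene table, 947 could be tested as whole genes. In RBMXL3 against GFP, 149 were higher and 50 lower, with a median of 0.08, beside 1503 (10.5%) and 1483 (10.4%) of all 14292 genes and a median of 0.00087. In RBMXL3 against WT, 128 were higher and 178 lower, with a median of -0.05, beside 2085 (14.6%) and 2186 (15.3%) and a median of -0.01. In GFP against WT, 7 were higher and 58 lower, with a median of -0.13, beside 251 (1.76%) and 273 (1.91%) and a median of -0.0078. The excess of lower genes between GFP and WT was not seen under every setting. There 0 were higher and 0 lower with no filter and likewise in summed TPM, 2 and 0 in TPM weighted by length, and 4 and 31 under quantile normalization. Over all genes tested in the reported fit these settings gave 0 and 0 with no filter and in summed TPM. They gave 4 and 4 in TPM weighted by length, and 171 and 156 under quantile normalization. Against GFP the long-exon counts were 37 and 9 with no filter (all genes 409 and 421). They were 57 and 4 in summed TPM (716 and 180) and 135 and 18 in TPM weighted by length (1262 and 640). Against WT they were 71 and 84 with no filter (961 and 1052) and 48 and 40 in summed TPM (915 and 610). TPM weighted by length gave 117 and 91 (1828 and 1237). The side with more genes thus turned in both TPM measures, over all genes as well as over long-exon genes.

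The counts of long-exon genes also moved with single libraries. Between GFP and WT they were 0 and 0 without either WT library, where all tested genes gave 0 and 0 (replicate 1) and 17 and 3 (replicate 2). They were 8 and 198 without GFP replicate 1 (all genes 417 and 729) and 47 and 127 without GFP replicate 2 (1271 and 1509). Without RBMXL3 replicate 1 they were 0 and 16 (75 and 78), and without RBMXL3 replicate 2 they were 0 and 15 (69 and 75). Against GFP, leaving out GFP replicate 1 gave 232 and 48 (all genes 1721 and 1806) and leaving out GFP replicate 2 gave 165 and 136 (2085 and 2228). Leaving out an RBMXL3 library gave 38 and 6 (450 and 390) for replicate 1 and 18 and 4 (362 and 296) for replicate 2. Leaving out a WT library cannot alter a log2 change against GFP, as WT enters that test only through the spread. The median against GFP thus stayed at 0.08 by construction, beside 0.00087 over all tested genes. Against WT the long-exon counts were 63 and 61 without WT replicate 1 (all genes 845 and 708) and 80 and 95 without WT replicate 2 (1329 and 1363). They were 169 and 269 without GFP replicate 1 (2880 and 3273) and 171 and 269 without GFP replicate 2 (2889 and 3274). Without RBMXL3 replicate 1 they were 70 and 53 (918 and 719), and without RBMXL3 replicate 2 they were 44 and 53 (767 and 661). More long-exon genes were higher than lower against GFP in each of these fits, while against WT the order turned without WT replicate 1 or RBMXL3 replicate 1.

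Other genes of the 3 pathways came from fixed lists. Of 16 genes around ATR activation, where ETAA1 acts, 0 were higher and 3 lower in RBMXL3 than in GFP (median -0.13), and 1 was higher and 6 lower than in WT (median -0.17). The called share was 18.75% against GFP, beside 20.9% of all tested genes, and 43.75% against WT, beside 29.9%. Lower than both controls were 2 genes, in a class that holds 13.7% of all tested genes in either direction. RPA1, the large subunit of the single-stranded DNA binding complex, was at 5414 and 4998 (WT), 5795 and 5372 (GFP) and 4202 and 4194 (RBMXL3). The RBMXL3 libraries were below all controls, as in 23.6% of tested genes, and the log2 changes were -0.41 against GFP and -0.31 against WT (limma adjusted p 0.0115 and 0.0296). TIPIN, a replication fork protection factor, was at 663 and 549 (WT), 593 and 673 (GFP) and 427 and 406 (RBMXL3), which is -0.57 and -0.51 on the log2 scale (limma adjusted p 0.00801 and 0.00981). In GFP against WT 0 of the 16 were called. The calls against both controls were all lost without RBMXL3 replicate 1 or RBMXL3 replicate 2, and those against WT also without WT replicate 1. Without any other library the number called changed as well, as it did over all tested genes. With each library left out in turn, the median of the list ran from -0.23 to -0.11 against GFP and from -0.17 to -0.15 against WT.

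Of 16 translesion synthesis genes, 1 was lower in RBMXL3 than in each control, and 0 were higher (medians -0.07 and -0.04). The called share was 6.25% in both comparisons, under the 20.9% and 29.9% of all tested genes. This was PCNA, the sliding clamp that recruits the polymerases. It was at 7656 and 7389 (WT), 8672 and 9027 (GFP) and 6150 and 5855 (RBMXL3), with the RBMXL3 libraries below all controls. Its log2 changes were -0.56 against GFP and -0.32 against WT (limma adjusted p 0.00219 and 0.022). MAD2L2 and REV1, the partners of REV3L in polymerase zeta function, were not called. The PCNA call against WT was lost under quantile normalization and without any one WT or RBMXL3 library, and that against GFP without RBMXL3 replicate 2. More genes of the list were called against WT without either GFP library, and against GFP without GFP replicate 2. This was also so over all tested genes. With each library left out in turn, the median of the list ran from -0.12 to -0.02 against GFP and from -0.09 to -0.04 against WT.

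Of 20 ATRX partners and H3.3 chromatin genes, 19 could be tested, and SP100 was under the minimum. None of the 19 was called between RBMXL3 and GFP by limma (median 0.04), and 3 were higher under quantile normalization. Against WT 3 were higher and 1 lower (median 0.10), and between GFP and WT 0 were called. The called share was 0% against GFP and 21.1% against WT, under the 20.9% and 29.9% of all tested genes. DAXX, the direct partner of ATRX, was at 1273 and 1116 (WT), 1407 and 1231 (GFP) and 1345 and 1255 (RBMXL3), and was not called. Its GFP libraries were not low, unlike those of ATRX. The calls against WT were all lost without WT replicate 1 or either RBMXL3 library, and in part without WT replicate 2. Some genes of the list were called against GFP, and between GFP and WT, when a GFP library was left out. More of all tested genes were called in those fits as well. With each library left out in turn, the median of the list ran from 0.01 to 0.08 against GFP and from 0.06 to 0.12 against WT.

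RBMX itself was level, at 12144 and 11333 (WT), 11965 and 12073 (GFP) and 12450 and 11572 (RBMXL3), a log2 change of -0.0018 from GFP and 0.03 from WT (limma adjusted p 0.991 and 0.83). Of the 6 genes of the RBMX family and its TRA2 splicing partners, RBMXL3 was higher and RBMXL1 lower against both controls, and RBMXL2 was higher against WT. RBMXL1, an expressed retrocopy of RBMX, was at 1198 and 1116 (WT), 985 and 1073 (GFP) and 839 and 773 (RBMXL3). Its changes were -0.34 and -0.51 (limma adjusted p 0.0366 and 0.0039). The call against GFP was lost without any WT or RBMXL3 library or GFP replicate 2, and the call against WT without WT replicate 1 or RBMXL3 replicate 2. Of the 2 higher calls against WT, 1 was left without any WT or RBMXL3 library, and without GFP replicate 2 there were 2 higher calls against GFP. These genes are near copies of each other, so reads may be split between them. TRA2A and TRA2B were called in no comparison.

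The genes whose counts followed each member most closely were found among 10744 genes, by Pearson's r of log2 values over the 6 libraries, as a description. For ATRX they were TRIM2 (r = 0.997) and N4BP2 (r = 0.995), followed by ENSG00000203644 (r = 0.988). TRIM2 was at 1605 and 1650 (WT), 1025 and 1105 (GFP) and 1580 and 1547 (RBMXL3), so its GFP libraries were also low. For REV3L they were USP34 (r = 0.999), AHNAK (r = 0.994) and DST (r = 0.992), in each of which WT replicate 2 was the highest library. For ETAA1 they were SPAG16 (r = 0.996), EMC6 (r = 0.995) and KIAA1586 (r = 0.994), with both RBMXL3 libraries highest. Between the 3 genes themselves r was -0.52 for ETAA1 and REV3L, 0.48 for ETAA1 and ATRX, and 0.43 for REV3L and ATRX. The 6 points share their group and library depth, and with so many genes ranked some reach a high r.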

How the data were processed

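Per the labels' protocols, libraries were made from polyadenylated RNA with the TruSeq Stranded mRNA kit. The submitters' processing notes list Trim Galore 0.6.10, STAR 2.7.11a, DESeq2 and Salmon 1.10.2 and the builds GRCh38 and hg38. The counter, annotation release and use of strand are not given in the sources used here. The deposited gene table holds a normalised signal and not CPM: of 145320 nonzero values, 100.0% were whole multiples (within 0.001 read) of 1 step per library, so the authors divided read counts by 1 size factor each. The deposited transcript table holds TPM for 251955 transcripts. Of these, 80.0% matched GENCODE 29, carrying 94.7% to 95.1% of the TPM. Matching ignored the version, and 1 transcript of each of the 3 genes differed in version. These were ETAA1-201, REV3L-202 and ATRX-201, which all hold the long exon. Their structures and lengths were those of GENCODE 29 and may differ from the versions quantified. Only the matched transcripts entered the shares, gene sums and fits.

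Gene values were divided by 23.9 so that the mean total is 1000000, and kept at 1 or more in at least 2 libraries. log2(value + 1) was fitted with limma 3.58.1 (R 4.3.3), which understates changes of low genes. Transcript shares were fitted as log2 of (TPM + 0.5) over (the gene's other TPM + 0.5) at a mean TPM of at least 0.5. Long-exon ratios were fitted likewise, with both sums at a mean of at least 0.1 TPM and the gene at 1 or more. Each fit took all 6 libraries, with no covariate, two-sided. Alternatives were other pseudocounts and filters, quantile normalization, edgeR 4.0.16 and DESeq2 1.42.0 on recovered reads, summed TPM, diffSplice, the replicate block and each library left out. The planned test had assumed true CPM. Scripts were tested on simulated data. The rule for named genes took the 3 genes, their transcripts with a mean of at least 0.5 TPM, BRCA2, RBMX, list genes called in the same direction against both controls and the 3 genes most like each member. DAXX, MAD2L2, REV1, the TRA2 genes, RBMXL2, REV3L-209 and the ETAA1 transcripts under the minimum were named after their values were seen. The members and lists were chosen with earlier results of these data known. Columns that belong to no sample numbered 0.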

Additional observations from a re-analysis of the deposited data

How the results depend on the processing

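Each value is a log2 change or a count of calls. No cause of a change named here was tested. Leaving out a library also leaves fewer samples, and dropping the filter tests more genes. With no filter, limma called 950 genes in RBMXL3 against GFP, 2327 against WT and 0 between the controls, where ATRX stayed at -0.60 without a call. In summed TPM these counts were 988 (779 higher, 209 lower), 1638 and 0. There ETAA1 changed by -0.24 against GFP, -0.21 against WT and 0.026 between the controls, ATRX by 0.013, -0.50 and -0.51, and BRCA2 by 0.056 against WT and 0.0014 between the controls. With TPM weighted by length, chosen after seeing the data, 1989 genes were called against GFP and 8 between the controls. ETAA1 was then at -0.33, -0.21 and 0.12, REV3L at 0.021 against GFP, BRCA2 at 0.018 against WT and ATRX at -0.55 between the controls, no longer called. Under quantile normalization 327 genes were called between the controls, ATRX was at 0.088 against WT and ETAA1 at 0.0021 between the controls. REV3L against GFP, near 0, was 9.1e-06 with a pseudocount of 0.1, 0.0019 in edgeR and 0.0087 in DESeq2. ATRX against WT was 0.0033 in edgeR and 0.0066 in DESeq2, and ETAA1 between the controls 0.00085 in edgeR. diffSplice called 1520, 1355 and 159 transcripts, with REV3L-202 at -0.092 against GFP. Adding 0.1 TPM gave 503 transcript shares against WT, and 3 and 2 long-exon ratios against GFP and WT.

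With each library left out in turn, the counts of genes ran from 658 to 4313 against GFP, 1428 to 6163 against WT and 0 to 2780 between the controls, and of transcript shares from 0 to 0. REV3L ran from -0.059 to 0.059 against GFP and from -0.37 to -0.16 against WT, ATRX from -0.026 to 0.0079 against WT and from -0.65 to -0.55 between the controls, and ETAA1 from -0.11 to 0.087 between the controls. Against GFP the shares of REV3L-202 and REV3L-204 ran from -1.16 to 1.60 and from -2.27 to 0.59. Against WT the REV3L-202, ATRX-201 and ATRX-219 shares ran from -0.57 to 2.18, -0.059 to 0.18 and -0.058 to 0.58. Between the controls the ATRX-202 and ATRX-218 shares ran from -0.09 to 0.75 and -0.77 to 0.58, and the long-exon ratios from -0.18 to 0.35 (ETAA1), -0.072 to 0.84 (REV3L) and -0.40 to 0.031 (ATRX).

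Same-numbered libraries showed no strong shared deviation over 14292 genes. Their deviations correlated at -0.16 (WT and GFP), 0.03 (WT and RBMXL3) and -0.09 (GFP and RBMXL3). The labels do not say whether a replicate number marks a shared preparation. With the replicate block limma called 2386, 3697 and 191 genes, in the order of comparisons above, and 0 transcript shares against GFP and against WT. ATRX kept both calls under the block (adjusted p 0.00388 and 0.0291). BRCA2 between the controls lost its call under the block (adjusted p 0.0756), and there the long-exon genes were 0 higher and 22 lower, beside 84 and 107 of all tested genes. Depth limits the RBMXL3 group most, at 17685680 reads in replicate 1.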

Other observations

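2 annotated antisense RNAs lie opposite exons of REV3L, and whether counting used strand is not given in the sources used here. AL080317.3 shares 576 exon bases with REV3L, 4.64% of its exon length, and had normalised read counts of 72.8 and 99.8 (WT), 35.1 and 53.0 (GFP) and 50.2 and 49.2 (RBMXL3). Its WT libraries were the highest, as were those of REV3L. TRAF3IP2-AS1 shares 117 bases, 0.94%, and was at 68.6 to 118 over the 6 libraries. ETAA1 and ATRX shared no exon base with another annotated gene.

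Transcripts of ATRX annotated with a retained intron, 4 in the table, made up 21.0% and 12.1% of its TPM (WT), 22.8% and 8.52% (GFP) and 5.73% and 2.92% (RBMXL3). Both RBMXL3 libraries were below all 4 controls, and the controls differed more from each other within a group than between groups. The protein-coding transcripts of ATRX made up 90.1% and 90.6% in RBMXL3 and between 71.7% and 84.4% in the controls. ATRX-203, a coding transcript of 814 bases without the long exon, was listed at 0 TPM in replicate 1 of each group. It was at 3.22 TPM in WT replicate 2, 5.09 in GFP replicate 2 and 0.569 in RBMXL3 replicate 2. These groupings were chosen after the values were seen and were not tested.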
